A study of Mus musculus with 22 samples.

Results

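Messenger RNA was compared between mouse embryonic stem cells that had made chimera C1C3b and cells that had made chimera C1C3a, both derivatives of the transcription factor DUX. The libraries were chosen by their labels: 2 libraries of each chimera, so 4 of the 22 samples of the series. All cells in the comparison were mESCs Dux-/-, a line lacking the endogenous Dux gene, and each carried a construct with an mCherry tag, a red fluorescent protein, under control of doxycycline. Cells were kept in 2iLIF medium, plated, left for 24 hours and then given 0.25 ug/mL doxycycline for 12 hours. The groups used here are C1C3a (genotype mCherry-C1C3a Dux), C1C3b (mCherry-C1C3b Dux), and, for reference levels, C1+14 (mCherry-C1+14 Dux), mCherry alone, FL (labelled FL Dux) and C3+14, each with 2 libraries. C1C3c, another chimera with 2 libraries, entered the test only, which estimated the spread of each gene from all 7 groups together. The labels name no promoter or clone and do not say what distinguishes a from b. They do not say that replicates came from separate cultures either. The p-values below therefore measure only the spread between the libraries of these 7 groups.

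DUX binds DNA through a pair of homeodomains and activates genes through its carboxy-terminal part. In the mouse it is made as the zygotic genome is switched on at the 2-cell stage, where it turns on genes such as the Zscan4 cluster, and making it in embryonic stem cells turns on the same group of genes. Embryonic stem cells otherwise keep these genes silent through chromatin factors and DNA methylation, and are held in the pluripotent state by factors such as Nanog, Sox2 and Pou5f1.

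The C1C3a libraries held 32543856 and 29559780 reads, and the C1C3b libraries 25233577 and 23251986. Values below are normalised reads, the authors' read counts divided by 1 size factor per library. Replicates correlated across genes with r of 0.973 (C1C3a) and 0.981 (C1C3b), and 3363 and 2289 genes, respectively, differed over 2-fold between replicates. The Dux genes Duxf3 and Gm4981 had 0 reads in all 14 libraries of the table, and the table has no row for the transgene, so the levels of the 2 chimeras themselves were not measured and their part in any difference below was not tested. Reads in 1640 high-copy genes made up 2.06% and 1.80% of the C1C3a libraries and 2.02% and 2.01% of the C1C3b libraries, so the chimeras were alike in this respect, as was C1+14 (1.92% and 2.14%), whereas mCherry had 0.311% and 0.341%. C3+14 had 0.295% and 0.296%. Levels in mCherry and C3+14 of genes with shared sequence are therefore not on the same footing. All 12 embryonic stem cell markers were detected in both chimeras.

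The programme of the 2-cell embryo stood far lower in C1C3b than in C1C3a, while many other genes stood moderately higher. Of 21584 genes tested with limma, 7683 (35.6%) were called, meaning a Benjamini-Hochberg adjusted p under 0.05 and a difference of at least 1 on the log2 scale. In C1C3b, 3952 (18.3%) were higher and 3731 (17.3%) lower. The directions differed in depth: 1027 genes were lower by at least 4 on the log2 scale and 307 higher by as much, and at 6 the counts were 521 and 21. With genes at 0 reads held at the bound that 3 reads allow, these counts became 905 and 217, and 450 and 12. The libraries of the 2 chimeras did not overlap for 7677 of the called genes. A call nearly requires this, and the share over all genes tested is not given, so the count adds no support.

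The counts in each direction depended on the scale. Normalised reads summed to 36023021 and 41847117 in C1C3a but to 22129899 and 21826248 in C1C3b. Scaling to library totals instead raised the median log2 difference of all genes by 0.78, from -0.07 with the deposited scale, and gave 7893 genes higher (36.6% of those tested) and 2031 lower (9.41%), so that 79.5% of calls were higher against 51.4%. Quantile normalization raised the median by 0.20. For the gene groups below, counts under library totals are given beside the main ones, to be read against 36.6% higher and 9.41% lower, as the main counts are against 18.3% and 17.3%.

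**Figure D1:**
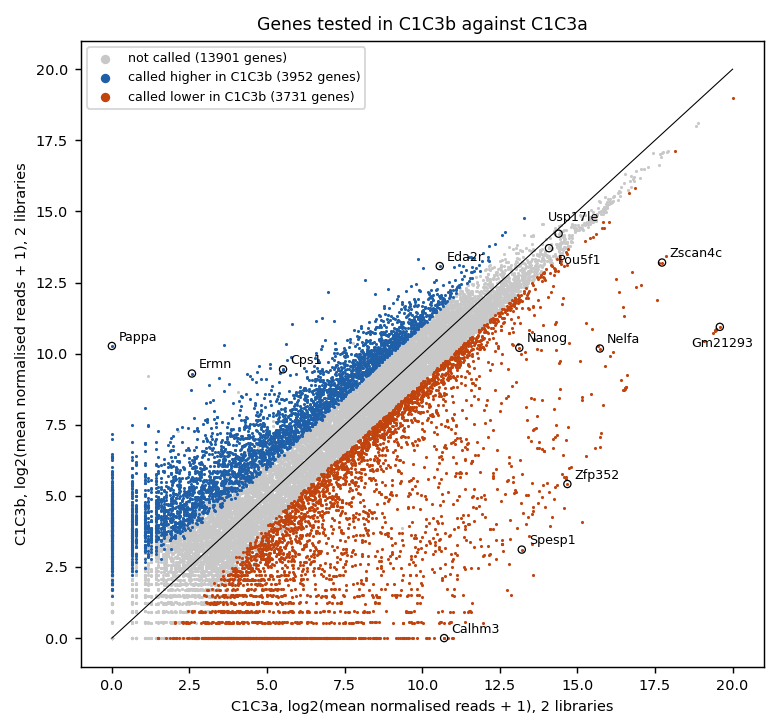
Each point is 1 of the 21584 genes tested, with log2(mean normalised reads + 1) of the 2 C1C3a libraries on the horizontal axis and of the 2 C1C3b libraries on the vertical axis. Blue points are the 3952 genes called higher and orange points the 3731 called lower in C1C3b, and the line marks equal values. The decreases reach genes among the most abundant of C1C3a, such as Gm21293 and Zscan4c, and many of them lie on or near 0 in C1C3b, while increases of that depth are few.

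Some of the most abundant transcripts of C1C3a were nearly gone in C1C3b. On chromosome 10 (104142987 to 104196522, GRCm38) lie 7 copies of nearly the same gene, and this array took 11.2% and 13.6% of all reads in C1C3a. In C1C3b it took 0.0597% and 0.0527%. The array's share was 19.2% and 12.3% in FL and 2.91e-05% and 4.89e-05% in C1+14, so C1C3b lay between C1C3a and C1+14. In C3+14 it was 0.102% and 0.116%. There 1 copy, Gm4340, had 30258 and 35088 normalised reads and Gm6763 216 and 256. In C1C3b they had 1799 and 1600, and 1483 and 1329. Genes with shared sequence in C3+14 are not on the same footing as in C1C3b, so these levels cannot be set against each other. Gm21293 of this array had 654458 and 922797 normalised reads in C1C3a against 2110 and 1821 in C1C3b, a log2 difference of -8.63 (SE 0.27). Of its sampled 50-base stretches 99.0% occur in other genes as well, so levels of the single copies are uncertain.

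The RefSeq promoters (GRCm38.p6, from 250 bases before to 50 after the start) of 6 of these 7 genes hold a stretch with the motif GATTNNATC, which resembles the site that DUX is known to bind. The windows below are shown because the same stretch, with few changes, precedes genes on other chromosomes that were also lower in C1C3b, most of them with little shared transcript sequence. Capitals mark the motif or its other-strand form GATNNAATC, and each window holds 30 bases on either side, read 5′ to 3′ on the strand of the gene.
Gm21293 (chr10:104142811-104142879, plus strand): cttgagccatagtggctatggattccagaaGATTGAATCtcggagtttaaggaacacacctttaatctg
Gm33248 (chr7:129667239-129667307, plus strand): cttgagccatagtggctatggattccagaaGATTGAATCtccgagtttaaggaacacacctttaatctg
Gm35974 (chr16:3468287-3468355, plus strand): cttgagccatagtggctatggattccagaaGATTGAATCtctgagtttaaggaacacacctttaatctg
Gm12724 (chr4:106236949-106237017, plus strand): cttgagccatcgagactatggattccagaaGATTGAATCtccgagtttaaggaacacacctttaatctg
Gm12790 (chr4:101975213-101975281, minus strand): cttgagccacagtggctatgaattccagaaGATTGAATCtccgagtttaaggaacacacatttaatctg
Sp110 (chr1:85604049-85604117, minus strand): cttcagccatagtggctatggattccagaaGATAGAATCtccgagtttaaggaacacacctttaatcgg
Arih2 (chr9:108653733-108653801, minus strand): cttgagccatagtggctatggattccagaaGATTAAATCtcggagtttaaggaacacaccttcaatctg
Pemt (chr11:60040299-60040367, minus strand): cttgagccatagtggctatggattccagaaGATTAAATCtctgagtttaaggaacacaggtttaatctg

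Among all RefSeq promoters, 17 genes held a stretch with at least 60 of the 69 bases of the Gm21293 window. Of these 13 were in the table, and all 13 were tested and called lower in C1C3b, with log2 differences between -10.60 and -2.40. Across all genes 17.3% were called lower. However, 6 of the 13 are copies of the array from which the window was taken. Their decrease was known beforehand and their sequences are nearly the same. They are not separate cases, so the count cannot be set against that share. The window was picked and the count made after the values had been seen, so it is a description. Under 20% of the transcript sequence is shared for 6 of the 13, none of them a copy of the array. Gm12724 had 2312 and 2878 normalised reads in C1C3a and 1.75 and 0 in C1C3b. Gm33248 had 1644 and 2191 against 0 and 0.939, and Gm35974 had 1605 and 2197 against 1.75 and 0.

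Arih2, a ubiquitin ligase, fell from 3849 and 5054 normalised reads to 809 and 861, below the 4693 and 4834 of mCherry. C1+14, at 1737 and 2206, was below mCherry too. Pemt, which methylates phosphatidylethanolamine to phosphatidylcholine, fell from 372 and 403 to 25.4 and 42.2. It had 42.4 and 53.9 in C1+14 and 75.9 and 91.8 in mCherry. Sp110, a nuclear body protein, had 8463 and 7765 in C1C3a and 31.6 and 39.4 in C1C3b, with 48.3% of its sequence shared.

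Across all genes the motif lay in 1.46% of the 12960 tested genes with a RefSeq promoter, in 1.36% of those called higher and in 3.06% of those called lower. Among genes lower by at least 4 on the log2 scale it lay in 9.25% (27 of 292), and in 7.49% (14 of 187) of those with under 20% shared sequence. Among genes higher by at least 4 it lay in 2.25% (5 of 222). Without the genes that share the Gm21293 window and the Zscan4 genes, these being part of the 27, it lay in 4.33% (12 of 277) of the genes lower by at least 4, against 1.33% of the genes tested. Both strands were searched, and 1.83% of all RefSeq genes with a promoter hold it. A match is a description of letters, not a bound site.

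The Zscan4 promoters hold the other form of the motif in a different surrounding. Their windows share 19 of 69 bases with the Gm21293 window, and the Zscan4 genes kept more of their RNA in C1C3b than the array did. However, Arih2 (67 of 69 bases, log2 difference -2.40) and Pemt (65 of 69, -3.52) fell less than Zscan4c (-4.53). Sp110 holds the same GATAGAATC as the Zscan4 genes and had -7.80. A link between window and level was not tested.
Zscan4c (chr7:11005602-11005670, plus strand): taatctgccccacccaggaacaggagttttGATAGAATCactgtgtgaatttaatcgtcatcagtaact
Zscan4d (chr7:11166234-11166302, minus strand): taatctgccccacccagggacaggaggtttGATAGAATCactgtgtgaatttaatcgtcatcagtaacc

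Genes listed for the 2-cell embryo, 42 in number, were mostly lower in C1C3b. Of these 35 fell, 1 rose and 6 were not called, where 17.3% of all genes fell and 18.3% rose. The median log2 difference was -4.63 against -0.07 over all genes tested. For all 35 the libraries of the chimeras did not overlap, as for nearly all called genes. Under library totals 35 fell and 2 rose. Shared sequence touches 31 of the 42. With such genes left out, 7 of the members that remained were called lower. The list was written with earlier results of these data known.

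How much of the C1C3a level was left in C1C3b ranged widely. It was under 1% for 13 genes, between 1% and 10% for 13, between 10% and 50% for 10 and at least 50% for 6. The Tdpoz genes, which encode proteins with TRAF and POZ domains, lost the most: Tdpoz1 and Tdpoz2 had 0 reads in both C1C3b libraries, and Tdpoz4 fell from 8859 and 15217 to 1.75 and 5.63 normalised reads. Zfp352, a zinc finger gene of the 2-cell embryo on chromosome 4 (90218820 to 90225702) with 7.81% shared sequence, fell from 22928 and 29459 to 55.3 and 28.2, a log2 difference of -9.33 (SE 0.40, limma, adjusted p 1.45e-09). It had 0 reads in C1+14 and in mCherry, so C1C3b was low yet not silent.

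Tcstv1 and Tcstv3, genes of the 2-cell variable group, fell to 0.473% and 0.644% of their C1C3a levels. Tcstv3 went from 19442 and 33355 normalised reads to 173 and 167. The Zscan4 genes, which act on telomeres and genome stability, kept between 3.52% and 5.57%. Zscan4c (chromosome 7, 11005745 to 11010547) went from 175352 and 258579 to 11390 and 7464, against 6.58 and 1.86 in C1+14, a log2 difference of -4.53 (SE 0.38, limma, adjusted p 6.98e-07). All 9 Zscan4 genes and pseudogenes were lower, and their joint share was 2.73% and 3.59% in C1C3a against 0.315% and 0.211% in C1C3b. The Duxbl genes, paralogs of Dux, kept 3.94% to 4.02%, with Duxbl1 at 2617 and 2704 against 140 and 69.5. Of its 50-base stretches 94.3% are shared.

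Arg2, which breaks down arginine, kept 23.4%, going from 893 and 1188 to 229 and 259. Tmem92, a membrane protein gene with 2.88% shared sequence, kept 16.8%, going from 25454 and 21721 to 3955 and 3965. Pramef8, of the PRAME family, was the 1 member that rose, from 1293 and 1246 to 2834 and 2329, a log2 difference of 1.02 (limma, adjusted p 4.1e-05). It was no longer called without replicate 2 of C1C3a or without replicate 1 of C1C3b. Its call was also lost with size factors from genes without shared sequence and with bins of GC content and length centred. In these 2 settings the count of members called higher was 0. Obox genes and pseudogenes, homeobox genes of the oocyte and early embryo, were lower in 38 of the 40 tested, with a family median of -5.05, and in 38 under library totals.

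**Figure D2:**
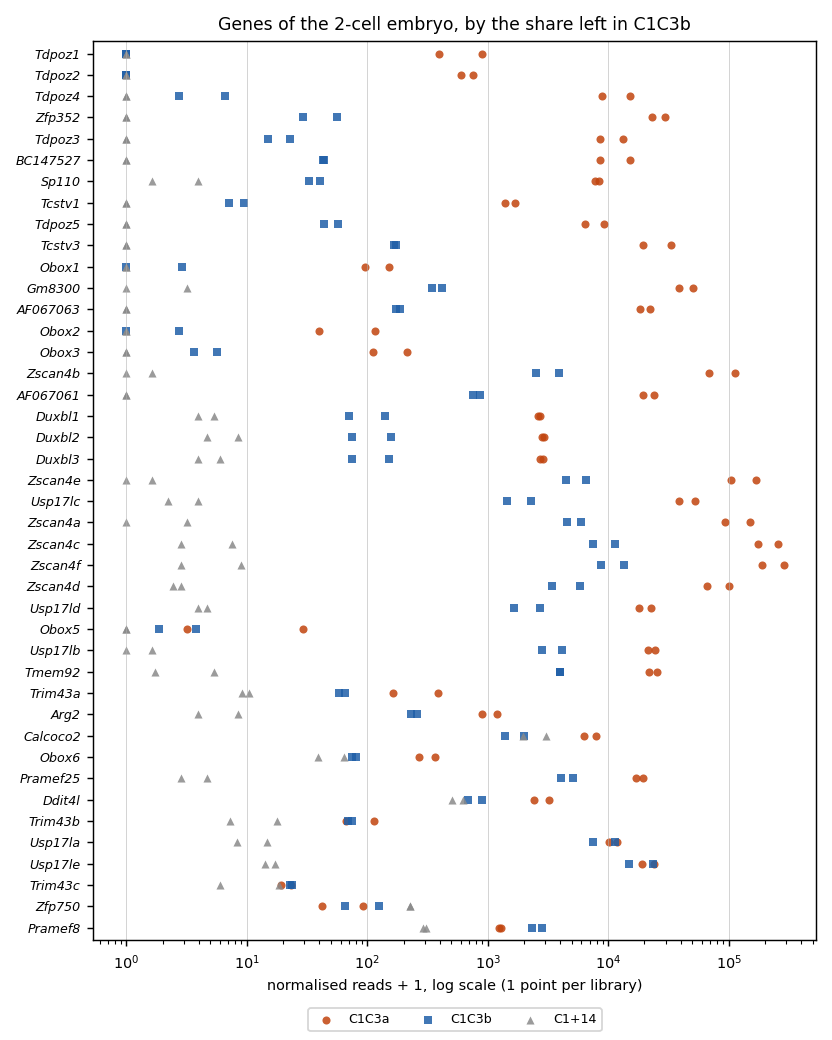
Normalised reads + 1 on a log scale for the 42 genes of the 2-cell list, ordered by the share of the C1C3a level left in C1C3b, with 1 point per library of C1C3a, C1C3b and C1+14. Tdpoz1 and Tdpoz2 at the top have 0 reads in C1C3b, and for Usp17la and Usp17le near the bottom the orange and blue points overlap. In most rows the C1+14 points lie far to the left of the C1C3a points, with Zfp750, Calcoco2 and Ddit4l among the exceptions.

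The Usp17-like genes, which encode deubiquitinases, split within the family, with 3 of 6 lower and 3 not called, also under library totals. Usp17lc fell from 38578 and 52462 to 1432 and 2297 normalised reads, a log2 difference of -4.63 (SE 0.28). Usp17ld (-3.25) and Usp17lb (-2.76) were lower as well. Usp17le had 19106 and 23965 in C1C3a and 14789 and 23322 in C1C3b, so that the libraries overlapped, and it was not called (log2 difference -0.20, SE 0.24, positive under quantile normalization, library totals, GC and length centring, or without replicate 1 of C1C3b). Usp17la had 11806 and 10245 against 7412 and 11341 and was not called either (-0.26). The third that was not called is a pseudogene, Usp17le-ps, at a mean of 120 normalised reads (SD 12.0, n = 2) against 80.8 (SD 21.2, n = 2). In both chimeras Usp17le and Usp17la stood far above C1+14, where Usp17le had 13.2 and 16.1 and Usp17la 7.31 and 13.6. Between 19.9% and 51.0% of the sequence of these genes is shared, and how the counting treated reads that match several of them is not given in the sources used here.

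The start regions of these genes are shown because they are nearly alike, and 1 of their differences lies in a motif. The window spans 120 bases of the RefSeq promoter from the longest stretch common to the family, 29 bases, and capitals mark TATAAA on the strand of the gene.
Usp17la (chr7:104856875-104856994, plus strand): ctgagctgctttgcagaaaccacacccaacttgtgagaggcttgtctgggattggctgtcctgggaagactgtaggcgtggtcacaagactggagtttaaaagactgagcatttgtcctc
Usp17lb (chr7:104842590-104842709, minus strand): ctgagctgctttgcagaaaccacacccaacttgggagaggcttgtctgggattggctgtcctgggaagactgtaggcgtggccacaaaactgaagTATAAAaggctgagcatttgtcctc
Usp17lc (chr7:103416513-103416632, plus strand): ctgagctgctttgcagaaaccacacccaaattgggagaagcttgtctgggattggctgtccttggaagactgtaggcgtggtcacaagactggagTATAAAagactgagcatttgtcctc
Usp17ld (chr7:103252591-103252710, minus strand): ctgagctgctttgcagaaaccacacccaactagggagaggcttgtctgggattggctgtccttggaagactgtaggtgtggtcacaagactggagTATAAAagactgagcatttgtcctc

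The 3 members that fell hold TATAAA in this window and Usp17la, which was not called, does not, while 115 of the 120 bases of Usp17lc and of Usp17ld are identical to Usp17la. The motif is not the only such difference. Nearer the start of the window Usp17la has a t where the 3 members that fell have a g. TATAAA lies on the gene's strand in 8.32% of 32851 RefSeq promoters. Usp17le and Usp17le-ps are named only. The motif was noticed after the values had been seen, and 4 genes are a description.

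Genes outside the 2-cell list showed decreases as deep. Counting only protein-coding genes with under 20% shared sequence, a mean of at least 50 normalised reads and no overlap, the 10 largest decreases were Calhm3, Spesp1, Cacna1s, Bex6, Trim75, Mrgprx2, Zfp352, Ctf2, Slfn2 and Rdh1. Zfp352 among them is on the 2-cell list. Spesp1 (chromosome 9, 62270729 to 62282208), which encodes a protein of the sperm equatorial segment, had 7375 and 11539 in C1C3a and 9.65 and 5.63 in C1C3b, a 1238-fold decrease (log2 difference -10.10, SE 0.33, limma, adjusted p 1.25e-10). C1+14 had 15.3 and 18.6, so C1C3b did not exceed it. Trim75, a tripartite motif gene, had 4517 and 4890 against 9.65 and 3.75.

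Calhm3, a calcium homeostasis modulator channel gene on chromosome 19 (47151609 to 47157764), had 1557 and 1780 normalised reads in C1C3a and 0 reads in both C1C3b libraries, at least 613-fold higher in C1C3a. Bex6 likewise had 743 and 929 against 0, at least 307-fold higher. Cacna1s, a muscle calcium channel subunit, had 1 read in each C1C3b library and 1788 and 2266 normalised reads in C1C3a, a ratio of 2233 with a counting interval of 618 to 18437. The floors and intervals cover counting error only, as PCR copies of 1 molecule were not told apart. Without the limit on shared sequence, Tdpoz4 and Apol7b joined the largest decreases, and their levels are uncertain at 42.1% and 71.0% shared.

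In all, 321 genes averaged 50 or more normalised reads in C1C3a and had no more than 3 reads in either C1C3b library. Of these 287 were at that floor in C1+14 too and 294 in mCherry, and 189 have under 20% shared sequence. The reverse, an average of 50 or more in C1C3b and no more than 3 reads in either C1C3a library, held for 82 genes, of which 27 were at the floor in C1+14.

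The largest increases were in genes at or near 0 in C1C3a. They were Pappa, Ermn, Ano5, Lrfn5, Fmo2, Clec1a, Aff2, Filip1, Chodl and Slc16a12. Ermn, a cytoskeletal protein of myelinating cells (chromosome 2, 58045113 to 58052864), had 9.96 and 0 in C1C3a against 688 and 572 in C1C3b, and 0.731 and 0.620 in C1+14 (log2 difference 7.57, SE 0.97, limma, adjusted p 3.03e-05). Pappa, a protease of insulin-like growth factor binding proteins, had 0 reads in both C1C3a libraries and 2438 and 28.2 in C1C3b, so that its libraries differed strongly from each other. Lrfn5, a synaptic adhesion protein, had 0 reads in C1C3a and 122 and 168 in C1C3b, at least 38.3-fold higher. Ano5, of the anoctamin family, had 2 and 0 reads in C1C3a and 311 and 230 normalised reads in C1C3b, a ratio of 245 with a counting interval of 67.7 to 2019. In the C1+14 libraries Lrfn5 had 6.58 and 24.2 and Ano5 0.731 and 4.96.

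**Figure D3:**
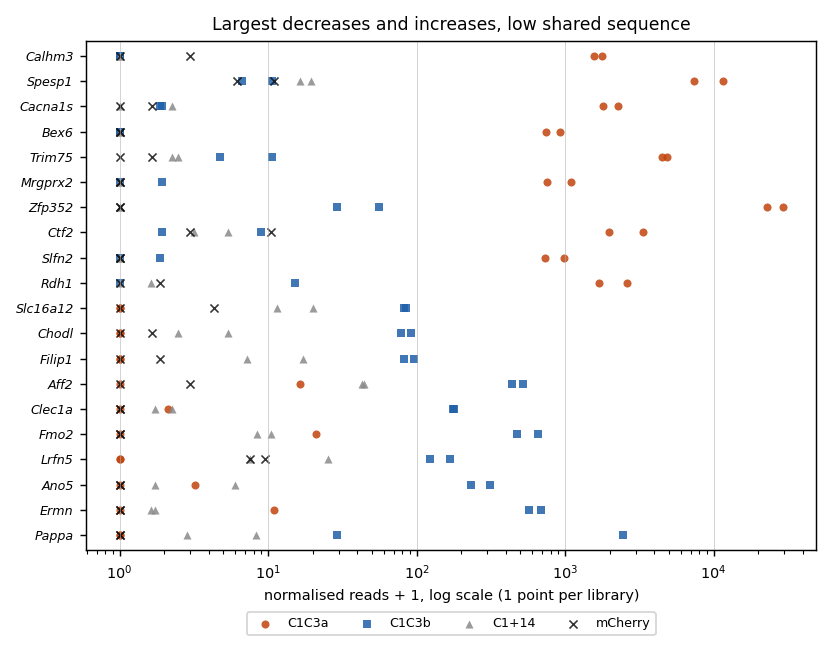
Normalised reads + 1 on a log scale for the 10 largest decreases (top, Calhm3 to Rdh1) and the 10 largest increases (bottom, Slc16a12 to Pappa) among protein-coding genes with little shared sequence, 1 point per library. In the upper genes C1C3a stands alone to the right and C1C3b lies far to its left, with both points above those of C1+14 and mCherry for Zfp352 and Trim75 and 1 of 2 for Rdh1 (14.1). In the lower genes C1C3b stands to the right of the other groups plotted, and the Pappa libraries of C1C3b lie far apart.

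Pluripotency genes were in large part lower in C1C3b. Of 18 naive factors 10 fell, 1 rose and 7 were not called, with a median of -1.38, and of 12 core genes 6 fell and none rose (median -0.98), against 17.3% lower and 18.3% higher over all genes. Under library totals the counts were 7 lower and 3 higher for the naive factors and 2 lower and 1 higher for the core genes, against 9.41% lower and 36.6% higher over all genes. Nanog, a homeodomain factor of the naive state on chromosome 6 (122707489 to 122714633), had 8928 and 8971 in C1C3a and 1308 and 1051 in C1C3b, a log2 difference of -2.93 (SE 0.24, limma, adjusted p 6.94e-07). C1+14 had 11149 and 9195 and mCherry 16214 and 15907, so that C1C3b was the lowest of these 4 groups.

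Klf2, a naive zinc finger factor, fell from 1308 and 1563 to 104 and 183, against 1572 and 1501 in C1+14. Tbx3 (3025 and 3575 against 503 and 446) and Prdm14 (306 and 419 against 47.4 and 72.3) were likewise lowest in C1C3b among these 4 groups. Fbxo15 and Dppa3 behaved otherwise, since C1C3a stood far above C1+14 and mCherry. Fbxo15, an F-box gene of embryonic stem cells, had 75845 and 79220 in C1C3a, 7115 and 5504 in C1C3b, 5693 and 5235 in C1+14 and 5996 and 5638 in mCherry. Dppa3, a maternal factor that protects DNA methylation, had 839 and 742 against 60.5 and 31.9, with 32.2 and 42.2 in C1+14. C3+14 had 91117 and 91195 for Fbxo15, above C1C3a, and 707 and 752 for Dppa3, overlapping with C1C3a.

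Among the core genes, Sall4 fell from 10246 and 13467 to 1850 and 1626, near the 1882 and 2324 of C1+14. Sox2 went from 1777 and 1990 to 744 and 654 (log2 difference -1.43, and -0.61 with adjusted p 0.139 in limma under library totals). Esrrb (3710 and 4315 against 1355 and 1039) and Zfp42 (5670 and 6395 against 2493 and 2397) were called lower, but not under library totals. Pou5f1, which encodes OCT4, had 14877 and 19872 against 14155 and 12594 and was not called (-0.36, SE 0.15, and positive under quantile normalization, library totals and GC and length centring). Klf4 had 3168 and 3028 against 2285 and 2425 and was not called (-0.40, SE 0.36, and 0.42 under library totals). Lifr, the receptor for leukaemia inhibitory factor, rose from 511 and 463 to 1358 and 1365. With bins of GC content and length centred, 0 of the 18 naive factors were called higher.

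**Figure D4:**
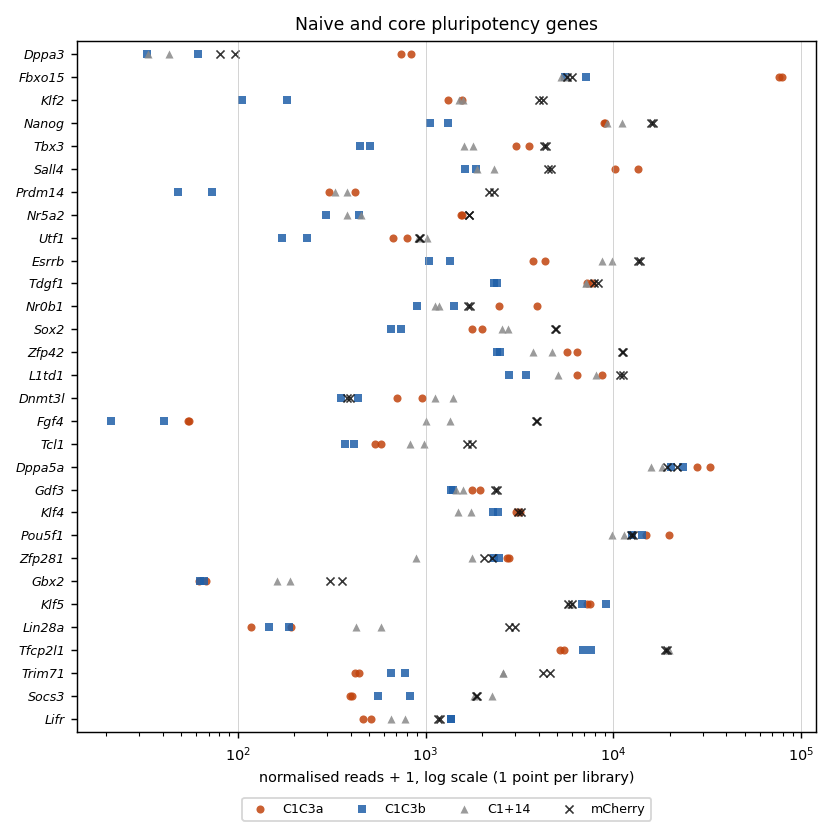
Normalised reads + 1 on a log scale for the 30 naive and core pluripotency genes, ordered by the log2 difference between C1C3b and C1C3a, 1 point per library of C1C3a, C1C3b, C1+14 and mCherry. For Klf2, Nanog, Tbx3, Prdm14 and Sox2 the blue C1C3b points lie to the left of the other 3 groups shown, while for Dppa3 and Fbxo15 the orange C1C3a points lie to the right of them. For Klf5 and Gbx2 the points of the chimeras overlap.

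Most factors that regulate the 2-cell state did not pass the test. Of 20 repressors 5 fell and none rose (median -0.33): Daxx, a histone chaperone, from 1835 and 2057 to 441 and 438, Uhrf1, which directs maintenance DNA methylation, from 17002 and 21304 to 5273 and 5461, and the silencing factors Trim28, Setdb1 and Chaf1b. Under library totals 2 fell and 5 rose, and Trim28, at 55024 and 59240 against 22145 and 21299, was no longer called (log2 difference -0.57). For Uhrf1 and Trim28 both C1C3a libraries stood above those of C1C3b, C1+14 and mCherry, while FL had 64582 and 58282 for Trim28.

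Of 10 activators and cofactors 2 fell, Nelfa and Dppa2, and none rose, with 1 lower and 4 higher under library totals. Nelfa, a subunit of the negative elongation factor that is linked to the 2-cell state, went from 45926 and 62324 in C1C3a to 1178 and 1140 in C1C3b (log2 difference -5.53, SE 0.16, limma, adjusted p 6.91e-11). C1+14 had 1200 and 1370 and mCherry 1355 and 1323, so for Nelfa C1C3b did not stand above the references. Dppa2, an activator of Dux itself, had 15490 and 16638 against 6744 and 5551, and both stood above C1+14 (1706 and 1554).

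Genes coding for histones were lower in C1C3b, a group picked after its values were seen. Of 60 tested genes of the Hist clusters 55 fell and none rose in C1C3b, where 17.3% of all genes fell, with a median of -3.87 (52 lower and 2 higher under library totals). Their share of reads was 0.0974% and 0.0776% in C1C3a, against 0.0169% and 0.0185% in C1C3b, with 0.00583% and 0.00473% in C1+14. Hist1h4a had 799 and 760 against 33.3 and 31.0. Most histone transcripts of these clusters lack a poly(A) tail and the libraries were made from poly(A) RNA, so that these values cover the captured part only. Many histone genes share sequence (Hist1h4a 40.8%).

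Targets of p53 that passed the test were all higher in C1C3b. Of 20 tested 7 rose and none fell (18.3% of all genes rose), with a median of 0.82, and 15 rose under library totals (36.6% of all genes), 11 under quantile normalization (21.7%) and 4 with bins of GC content and length centred (15.5%). Eda2r, a death-domain receptor on chromosome X (97333840 to 97377216), had 1823 and 1203 in C1C3a and 8354 and 8935 in C1C3b, against 2202 and 1246 in C1+14 (log2 difference 2.54, SE 0.23, limma, adjusted p 1.75e-06). Plk2, a polo-like kinase, went from 5165 and 2846 to 10558 and 13516. Trp53inp1 went from 2732 and 2170 to 7180 and 7925, but was not called when bins of GC content and length were centred (0.66). Cdkn1a, the cell cycle inhibitor p21 and a main p53 target, had 2895 and 2339 against 1522 and 2370 and was not called (-0.45, and 0.37 under library totals).

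Lineage markers changed in both directions, many of them at low levels. Of 13 genes of the primed epiblast 5 rose and 1 fell, with 6 higher and 0 lower under library totals. Otx2 had 2 reads in each C1C3a library and 59.6 and 41.3 normalised reads in C1C3b, a ratio with a counting interval of 7.81 to 73.4. C1+14 had 35.1 and 88.7 and mCherry 61.4 and 49.8, so that C1C3a stood below both of them as well. FL was low too, at 0 and 14.3, while C3+14 had 36.9 and 27.5. Fgf5 (3 and 2 reads against 30.7 and 24.4 normalised reads) and Lef1 (15.5 and 8.49 against 89.5 and 93.9) were higher in C1C3b. Nodal, a signal of the TGF-beta family, fell from 821 and 589 to 256 and 275. Without replicate 2 of C1C3b, 3 of the primed genes were called higher, and without replicate 1 of either chimera 2 were lower.

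Of 19 trophectoderm genes 7 rose and 5 fell (9 and 3 under library totals), and the sum of the list was 2333 to 2677 normalised reads in C1C3a, 2790 to 3222 in C1C3b and 5835 to 5876 in mCherry. Fgfr2 went from 81.9 and 73.6 to 562 and 570, and Cdh3 from 93 and 97.7 to 11.4 and 12.2. Cdx2, the factor that defines the lineage, had between 1 and 4 reads in every library of both chimeras, so that no difference was detectable at this depth. The count of trophectoderm genes called higher was 3 without replicate 2 of C1C3a, and 4 without either C1C3b replicate. Elf5, at 2.21 and 11.3 against 49.1 and 27.2, was no longer called without replicate 1 of C1C3a (limma, adjusted p 0.186) or of C1C3b (0.120).

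Of 16 primitive endoderm genes 1 rose, Cubn, an uptake receptor, from 6.64 and 0 to 34.2 and 87.3, with 3 called higher without replicate 1 of C1C3a and 7 under library totals. Gata6 had 34.3 and 45.3 against 64.9 and 69.5 and was not called (0.75, SE 0.47). Of 8 mesoderm markers 2 rose and of 9 neural markers 2 rose and 1 fell. Under library totals 3 of the former rose, and 4 of the latter rose and 1 fell. Kdr, a mesoderm receptor for vascular growth factor, rose from 35.4 and 22.7 to 327 and 372, and Map2, of the neuronal cytoskeleton, from 41.0 and 36.8 to 382 and 300. Tubb3, a neuronal tubulin, fell from 1093 and 1199 to 216 and 291. Wnt3 and Zic1 were called higher in the full set but not without either C1C3a replicate, the adjusted p of limma then being 0.183 or 0.0891 for Wnt3 and 0.0572 or 0.182 for Zic1. Without either C1C3b replicate the p for Wnt3 was 0.143 or 0.126, and for Zic1 it was 0.239 without the first. The count called higher was then 1 of the mesoderm markers without replicate 2 of C1C3a or either C1C3b replicate, and 1 of the neural markers without either C1C3a replicate or replicate 1 of C1C3b.

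Fibroblast markers were measured because feeder cells can be carried over. Of 10 tested 4 rose and 2 fell (7 and 1 under library totals), and the sum over the list was 384 to 451 in C1C3a, 568 to 735 in C1C3b and 646 to 704 in C1+14. Col3a1 had 1 and 0 reads in C1C3a and 26.3 in both C1C3b libraries, a ratio of 47.5 with a counting interval of 8.53 to 1877. Postn had 0 reads in C1C3a and 11.4 and 13.1 in C1C3b, at least 3.24-fold higher. Lum went from 12.2 and 0 to 84.2 and 40.4, and was not called without replicate 2 of C1C3a (limma, adjusted p 0.0588), when 2 markers were called higher. Col1a1 and Thy1 fell, the former from 31.0 and 29.7 to 5.26 and 8.45. The part of such cells in the results was not tested.

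Germline genes rose in 4 of 14 and fell in none (median 0.52), where 18.3% of all genes rose, with 9 higher under library totals, where 36.6% did. With bins of GC content and length centred 2 rose, where 15.5% of all genes did, and the median was 0.21. Tdrd1, a tudor protein of the piRNA pathway (chromosome 19, 56826209 to 56870012), had 161 and 52.4 in C1C3a and 776 and 1505 in C1C3b, against 8.77 and 18.6 in C1+14, so that both chimeras stood above C1+14 and C1C3b more so. Tex11, a meiotic gene, went from 294 and 248 to 1046 and 1040. Sycp1, of the synaptonemal complex, went from 74.2 and 94.9 to 287 and 254, but was not called with these bins centred (0.97).

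Signalling lists were mixed. Of 11 FGF and ERK feedback genes 3 rose and 3 fell (4 and 3 under library totals): Etv1 from 135 and 149 to 1094 and 987, Spry4 from 48.7 and 101 to 11.4 and 6.57, and Spred2 from 1437 and 1627 to 316 and 454. Of 11 Wnt targets 4 rose and 3 fell, with none lower under library totals and 1 lower without replicate 1 of C1C3b. Lgr5, a receptor for R-spondins, rose from 14.4 and 11.3 to 132 and 139, and Sp5 from 2.21 and 7.08 to 23.7 and 40.4. Rnf43, at 3 and 1 reads in C1C3a and 21.9 and 10.3 normalised reads in C1C3b, was not called without replicate 1 of C1C3b (limma, adjusted p 0.0518).

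Of 20 genes of the integrated stress response 5 fell and 1 rose, and under library totals 1 fell and 3 rose. Asns, asparagine synthetase, had 38654 and 38814 against 17331 and 14749, and Ppp1r15a, which restores translation after stress, 2574 and 2446 against 1105 and 925. Cebpb went from 172 and 185 to 36.0 and 67.6. The call of Chac1 (46.5 and 34.0 against 7.02 and 11.3) was lost without any 1 of the 4 libraries (limma, adjusted p 0.0567 to 0.142), and that of Vldlr (101 and 77.9 against 227 and 267) without replicate 2 of C1C3a (0.0520), when no gene of the list was called higher. Of 13 heat shock genes 3 fell, Hspa1a, Hspa1b and Hspb1, with 0 lower and 2 higher under library totals, and each of these shares over 50% of its sequence. Of 12 immediate early genes 3 fell, with 1 lower and 1 higher under library totals. Dusp1 went from 987 and 763 to 193 and 208, Egr1 from 239 and 229 to 46.5 and 64.8 and Ier2 from 617 and 675 to 327 and 286. Egr1 was not called without any 1 library (limma, adjusted p 0.0515 to 0.106), and Ier2 missed the threshold of size without replicate 2 of C1C3b (-0.98), when 1 of the list was called. The log2 difference of Ier2 was -0.25 under library totals (limma, adjusted p 0.439) and -0.48 with bins of GC content and length centred (0.0711).

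Metabolic lists differed in direction. Cps1, the entry enzyme of the urea cycle, rose from 49.8 and 39.6 to 733 and 663, against 3812 and 3813 in mCherry and 250 and 194 in C1+14, a log2 difference of 3.94 (SE 0.40, limma, adjusted p 4.28e-06). Of the list of 7, 1 rose and 2 fell, with 3 higher and 1 lower under library totals and 2 higher without replicate 1 of C1C3a. Ass1 and Arg2 of the same list fell, Ass1 from 11052 and 13138 to 5929 and 4925 (45.4% shared), though it was not called under quantile normalization (-0.49), library totals (-0.34) or GC and length centring (-0.71). Of 19 cholesterol synthesis genes 3 rose and 1 fell, and 10 rose and 0 fell under library totals. Idi1 (1059 and 1019 against 3283 and 2510), Hmgcs1 (1603 and 1464 against 4536 and 3357) and Msmo1 (1932 and 1271 against 4155 and 3733) were the 3, and without replicate 1 of C1C3a 5 were called higher. The 1 decrease was lost without either C1C3a replicate and without replicate 1 of C1C3b, leaving 0. Hmgcs1 was not called with bins of GC content and length centred (0.70). Of 18 glycolysis enzymes 2 fell, Aldoa (50144 and 49138 against 18785 and 19065) and Aldoc (1665 and 1627 against 533 and 456), and 0 fell and 1 rose under library totals.

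Of 23 cell cycle genes 3 rose and 4 fell, where 18.3% of all genes rose and 17.3% fell, with 5 higher and 0 lower under library totals. Ccne1, cyclin E1, went from 1179 and 1322 to 438 and 485, and Cdc20, an activator of the anaphase-promoting complex, from 8250 and 7655 to 3153 and 3435. Cdkn2b, at 139 and 58.0 against 243 and 260, was not called without replicate 2 of either chimera (limma, adjusted p 0.148 without that of C1C3a and 0.0566 without that of C1C3b). Without replicate 1 of C1C3a or replicate 2 of C1C3b, 1 of this list was called higher. Of 16 splicing factors 2 rose and 1 fell, with 6 higher and 0 lower under library totals. Srsf11 went from 1387 and 1486 to 4599 and 4083, and U2af1 from 6809 and 7373 to 3187 and 3009 (49.1% shared). The call of U2af1 was lost under quantile normalization (-0.69), library totals (-0.37) and GC and length centring (-0.60). Clk4, at 541 and 483 against 1076 and 1075, missed the threshold of size without replicate 2 of C1C3a (0.99), when 1 of the list was higher, and 2 were lower without replicate 1 of either chimera. The log2 difference of Clk4 was only 0.36 with bins of GC content and length centred. Of 10 nonsense-mediated decay factors 2 rose, Upf2 from 214 and 283 to 956 and 1074 and Smg9 from 90.8 and 82.1 to 297 and 228, and 7 rose under library totals. Upf2 in C1+14 (1043 and 510) and mCherry (1840 and 1874) was above C1C3a in every library. Of 22 junction and keratin genes 3 fell and 1 rose, with 3 lower and 5 higher under library totals. Among those that fell were Cldn4 (25.5 and 34.0 against 4.39 and 7.51) and Pkp3 (1243 and 1135 against 313 and 275), while no member was called higher without replicate 2 of C1C3a or without either C1C3b replicate.

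**Figure D5:**
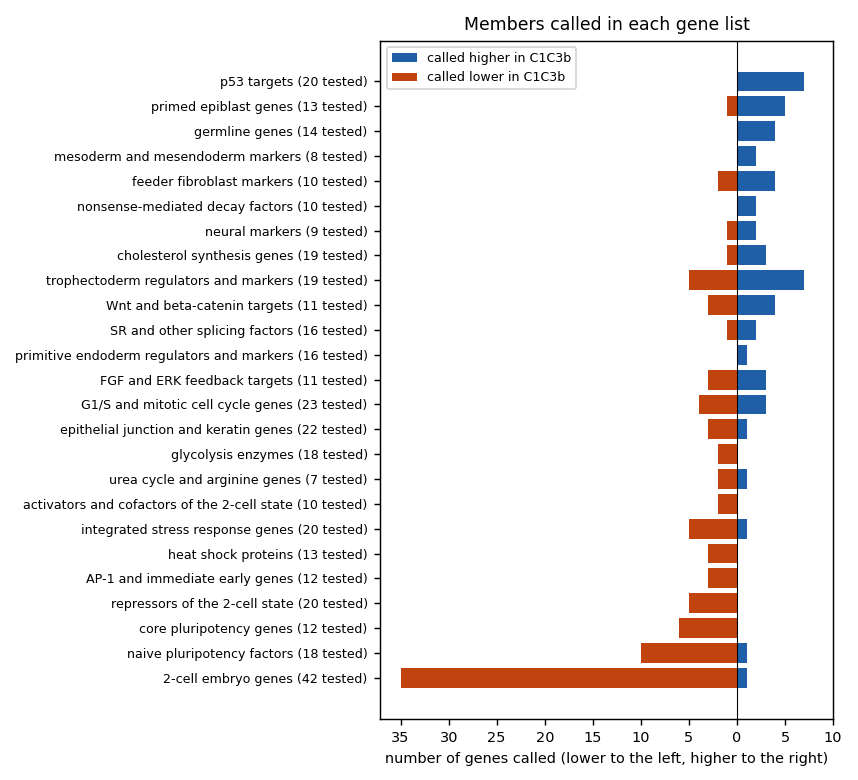
Number of members of each gene list called lower (orange, to the left of 0) and higher (blue, to the right) in C1C3b, with the number tested in brackets. The 2-cell list has 35 of 42 members called lower, followed by the naive factors with 10 of 18, and the p53 targets have 7 of 20 called higher and none lower.

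Abundant housekeeping groups took like shares of the libraries. Genes for cytoplasmic ribosomal proteins took 8.35% and 8.15% of reads in C1C3a and 9.14% and 8.84% in C1C3b, and 3 of 85 were called lower. Their median log2 difference was -0.69, and 0.14 under library totals and 0.31 under quantile normalization, so their direction turns with the scale. Mitochondrial genome genes took 6.20% and 5.89% against 5.46% and 6.18%, with 4 of 25 called lower and 0 under library totals.

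The genes that rose and fell also differed in kind. Of those called higher 84.1% are protein coding, and of those called lower 56.9%, with 21.6% pseudogenes, against 72.5% protein coding among all genes tested. Shared sequence marked 35.0% of the lower genes and 11.5% of the higher ones. Among protein-coding genes the median longest transcript had 4144 bases for those higher and 2420 for those lower, and the median GC content was 45.9% and 52.5%. Over 13551 protein-coding genes with little shared sequence, the log2 difference had a Spearman correlation of -0.316 with GC content and 0.255 with transcript length. Genes are not independent replicates. Between replicates of 1 group the correlation with GC content was 0.134 in C1C3a, -0.0954 in C1C3b, -0.203 in mCherry and -0.424 in C1+14. That with transcript length was 0.056 in C1C3a, -0.0774 in C1C3b, -0.0549 in mCherry and 0.226 in C1+14. Trends of such size thus also arose between replicates of C1+14. With these genes cut into 5 equal bins by GC content, the median difference was 0.73 in the lowest bin and -0.35 in the highest. With bins of GC content and length centred, 6900 genes were called, of which 5665 had been called in the same direction before. The part of this trend in the results was not tested.

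By chromosome, the share of tested genes called lower ran from 10.8% on chromosome X to 23.7% on chromosome 7, which holds the Zscan4 cluster. The share called higher ran from 11.6% on chromosome 11 to 25.5% on chromosome 3.

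Each chimera was also compared on its own with C1+14. C1C3a was called higher at 5059 genes (23.4%) and C1C3b at 3864 (17.9%), and these comparisons share the C1+14 libraries. Of the 42 genes of the 2-cell list, 40 were higher than C1+14 in C1C3a and 32 in C1C3b.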

How the data were processed

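Poly(A) RNA of the chimera libraries (Illumina TruSeq Stranded mRNA, per the labels' protocols) was sequenced, and the submitters' processing notes name mm10, Trim Galore 0.5.0, FastQC and DESeq2. The aligner, the counter and what was done with multi-mapping reads are not given in the sources used here. The authors deposited a signal per gene and library, which are reads divided by 1 size factor per library: 100% of 776818 values were whole multiples of the worth of 1 read (tolerance 0.01 reads), so reads could be recovered.

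Values were tested as log2(value + 1) with limma 3.58.1 (R 4.3.3) over all 7 groups of the table, 2 libraries each, for genes with at least 10 normalised reads in at least 2 libraries. Fold changes on this scale understate the change of low genes. A call needed a p below 0.05 after Benjamini-Hochberg adjustment and a log2 difference of at least 1. An exact permutation test of 2 against 2 libraries cannot go below p = 0.333. Shared sequence is the share of 50-base stretches, sampled every 10 bases of the annotated transcripts (GENCODE M21, GRCm38), that occur in other genes, and 20% or more was marked. Alternatives included edgeR 4.0.16 and DESeq2 1.42.0 on the recovered reads. Scripts were tested on simulated data. Gene names come from the annotation.

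Genes named by rule were a fixed set, up to 3 called members per list by size, and the 10 largest changes in each direction among protein-coding genes with little shared sequence. Further genes, among them Tbx3, Prdm14, Setdb1, Asns, Ppp1r15a, Col1a1, Thy1, Arih2, Pemt and Hist1h4a, were added after their values were seen. The members and lists were chosen with earlier results of these data known.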

Additional observations from a re-analysis of the deposited data

How the results depend on the processing

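Across the 18 alternatives the number of genes called was between 5869 (genes with shared sequence left out) and 9924 (library totals), against 7683, with edgeR calling 7470 and DESeq2 7050. Scaling to library totals, size factors from genes without shared sequence and centring of GC and length bins were chosen after seeing the data. Library totals gave 7893 genes higher and 2031 lower, of which 5983 were called in the same direction before. Leaving out genes with shared sequence gave 2386 genes lower. It removed 31 of the 42 genes of the 2-cell list, and 7 of those that remained were lower. Leaving out 1 library at a time gave 6373 to 7505 genes called, and 35 or 36 of the 2-cell list lower. Of 99 named genes called, 82 had a value under every alternative and 59 of these were called under each, while 11 more were called under each that gave them a value. The sign of 5 named genes, none of them called, turned: Usp17le was 0.72 under quantile normalization, 0.62 under library totals, 0.15 with GC and length centred and -0.53 to 0.12 without 1 library, Pou5f1 was 0.47, 0.46 and 0.23 under the first 3 of these, Klf4 was 0.42 and Cdkn1a 0.37 under library totals, and Cdx2 was -0.26 without replicate 2 of C1C3a and -0.23 without replicate 2 of C1C3b, within a range up to 0.58. The cause was not tested. Same-numbered libraries of the chimeras did not deviate together across genes (r = -0.0556). This value cannot tell whether they shared a culture or batch with a small effect. The fit with the replicate number as a block called 7599 genes. Depth limits genes near 3 reads, such as Cdx2.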
